A study of Mus musculus with 36 samples.

Results

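The CREB transcription factors, their CRTC coactivators and the salt-inducible kinases (SIKs) that restrain those coactivators were followed as 9 listed genes: Creb1, Crem, Atf1, Crtc1, Crtc2, Crtc3, Sik1, Sik2 and Sik3. They were chosen by name, and all 9 were found among the 26709 genes of the RNA table. All 9 also passed the filter on low values, a mean of at least 10 normalised counts over the 18 RNA libraries, which 16209 genes passed. Of the 58177 ATAC-seq peaks, which mark open chromatin, 50 lay in the 9 gene bodies or within 50 kb of them, and 49 of the 50 passed the same minimum.

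CREB, the product of Creb1, is a leucine zipper factor that binds the cAMP response element (CRE) and is phosphorylated downstream of cAMP, calcium and MAP kinase signals. Crem and Atf1 encode its closest relatives. CRTCs wait in the cytoplasm bound to 14-3-3 proteins while SIKs keep them phosphorylated, and after dephosphorylation by calcineurin they enter the nucleus and join CREB on its target genes. In neurons this pathway links synaptic activity to transcription, and its work is done largely through phosphorylation and movement of proteins, neither of which is visible in RNA counts.

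The cells were mouse cortical neurons (CNs) of the CD-1 strain, taken at embryonic day 15 and kept for 7 days in vitro. All groups, controls included, began with 2 h of silencing in 100 µM AP-5, which blocks NMDA receptors, and 1 µM TTX, which blocks voltage-gated sodium channels. CNs then received 10 ng/ml BDNF, the ligand of the TrkB receptor, or 55 mM KCl, which depolarises the membrane. Stimulation lasted 1, 6 or 10 h, and controls stayed in AP-5 and TTX for 3, 8 or 12 h in all. The study's methods have KCl added straight to the medium and do not state that AP-5 and TTX were removed before either stimulus. The KCl was added in a buffer that also carried calcium, magnesium and HEPES and that diluted the medium, so depolarisation and these changes of medium cannot be told apart. Each of the 9 groups had 2 RNA-seq and 2 ATAC-seq libraries, 18 of each kind, which the study's methods call biological replicates. The sources used here do not state that the cultures of a group came from separate litters, so the p-values measure the spread between these libraries.

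RNA libraries held 8.51 to 36.7 M reads in genes (median 11.6) and ATAC libraries 1.24 to 6.24 M reads in peaks (median 3.55). The RNA libraries of 6 h of KCl differed most from each other (chi-square per degree of freedom 36.4, at most 9.77 in the other groups). Neuronal markers were abundant, with a summed level of 49810 to 55633 normalised counts in controls, 50980 to 57367 with BDNF and 47737 to 58804 with KCl, but the cultures also held RNA of other cells. Astrocyte markers summed to 8839 to 11819 normalised counts in controls and 7027 to 12638 with KCl, progenitor and cycling-cell markers to 6673 to 9298 and 5368 to 8786, and oligodendrocyte-lineage markers to 5713 to 6194 and 4199 to 7242. Slc1a3 carried most of the astrocyte sum (6290 to 11230 over all libraries), while Gfap lay between 98.4 and 380. Vascular and fibroblast markers summed to 2689 to 3150 normalised counts in controls and 2124 to 3569 with KCl, carried by the collagen genes Col1a1 (975 to 1965 over all libraries) and Col1a2 (878 to 1443), while the endothelial marker Cldn5 lay between 0 and 6.53. Microglial markers summed to at most 117 in any library. These ranges overlapped between the controls, BDNF and KCl, and in bulk samples fewer cells of a type and less RNA per cell cannot be told apart.

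RNA values are normalised counts, reads per gene divided by a size factor of the library, and the 2 libraries of a group are given as library A and library B. Changes are log2 fold changes of the normalised count plus 1 against all 6 controls, with their standard error (SE), and a gene was called a DE-gene at a limma adjusted p below 0.1 (two-sided). The 6 controls, of 3 durations of silencing, were pooled as 1 level. Between controls of 6 h and 1 h, and of 10 h and 1 h, 0 of the 9 genes were called by limma and 0 reached an unadjusted p below 0.05. The largest absolute log2 difference among the 9 was 0.22 at 6 h and 0.25 at 10 h. Over all 16209 genes the share called was 0% in both, with 164 and 181 genes at an unadjusted limma p below 0.05, and edgeR also called 0, with 233 and 197.

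Per kb of exon, counted over all annotated transcripts of a gene, Crtc1 was the highest of the 9 in silenced CNs, at 155 ± 9.68 normalised counts per kb (SD, n = 6). The lengths of the transcripts present were not measured, so the order between genes depends on the annotation. Creb1 followed at 119 ± 5.57 and Crtc2 at 107 ± 5.91, and the ranges of these neighbours in the order overlapped. Sik1 stood at 94.4 ± 4.63, Sik3 at 66.6 ± 3.43, Atf1 at 59.0 ± 2.05 and Crtc3 at 42.2 ± 3.48 normalised counts per kb, each with a range apart from its neighbours. Sik2, at 23.4 ± 2.13, and Crem, at 20.2 ± 2.23 normalised counts per kb, were lowest and overlapped each other. The genes with the least RNA per kb in silence, Sik2 and Crem, were both among those that rose most on stimulation.

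**Figure D1:**
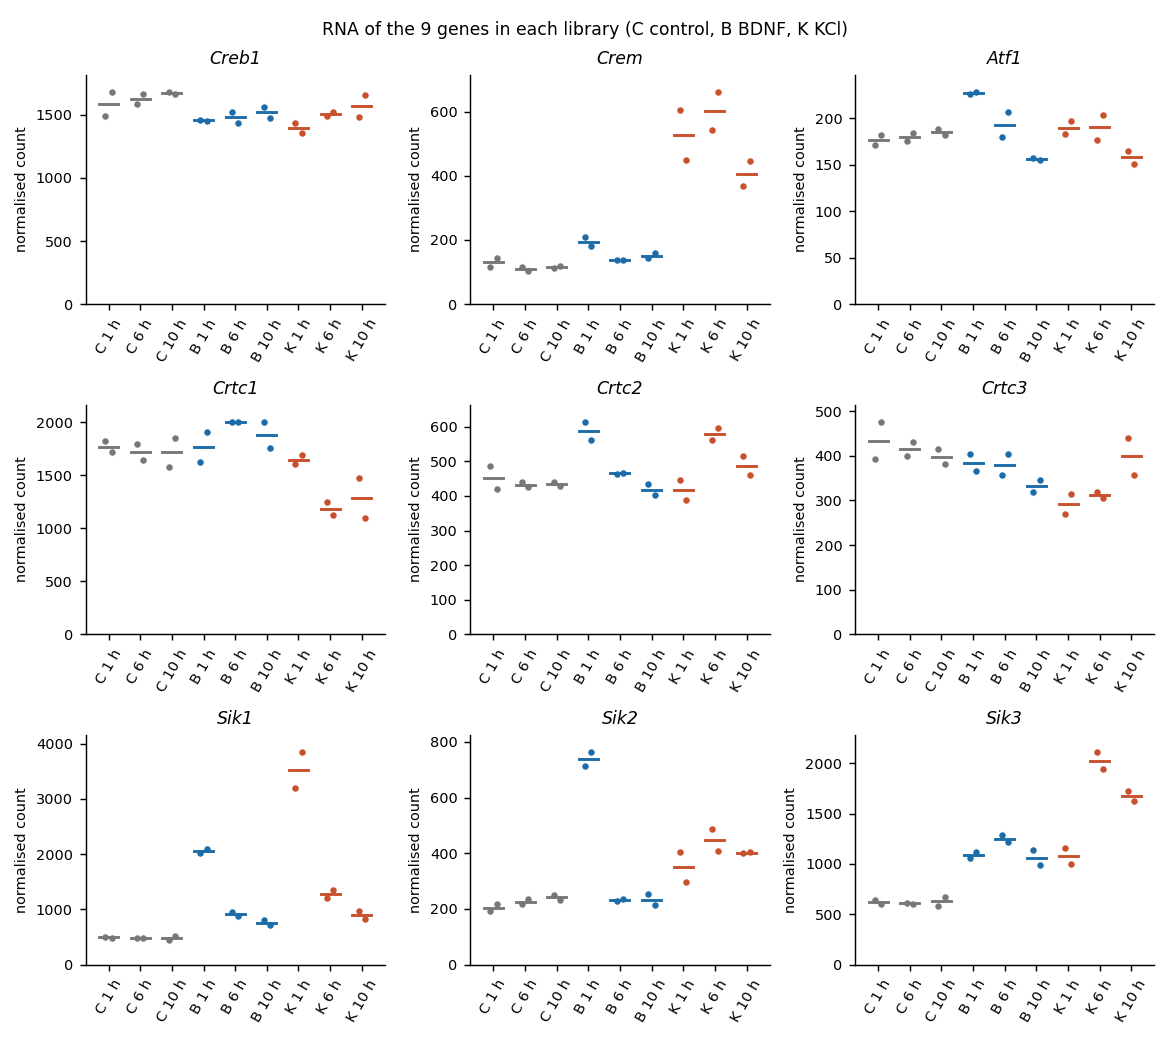
Normalised counts of the 9 genes in each RNA library (vertical axes, starting at 0) by group (horizontal axes), with 1 point per library and a line at the group mean. Sik1 was highest at 1 h of KCl (3202 and 3848), Sik2 at 1 h of BDNF (715 and 764), Sik3 at 6 h of KCl (2112 and 1938) and Crem stayed above its controls with KCl at all times.

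Among the 9 genes the largest changes were those of the kinases and Crem, but not in every group. At 6 h of BDNF neither Sik2 (log2 0.05) nor Crem (0.22) was called, and at 10 h of BDNF Sik2 was not (0.06). At 1 h of BDNF 6 of the 9 genes were called higher and 1 lower, against 21.3% higher and 19.0% lower of all genes tested. By 6 h the members' counts were 3 higher and 1 lower (22.1% and 21.1% of all genes), and at 10 h again 3 and 1 (21.1% and 19.5%). With KCl they were 4 higher and 2 lower at 1 h (26.5% and 28.2% of all genes), 5 and 2 at 6 h (33.4% and 33.1%), and 4 and 1 at 10 h (29.0% and 28.2%). The members' median log2 fold change was 0.42, 0.10 and 0.06 with BDNF and 0.07, 0.40 and 0.15 with KCl, where the median of all genes was within 0.01 of 0 each time. These medians hide the spread between the 3 families, which the next paragraphs take in turn.

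Creb1 (ENSMUSG00000025958, mm10 chr1:64532645-64604548, plus strand), which encodes CREB itself, had the smallest changes of the 9. Its normalised counts in controls ran from 1493 through a median of 1666 to 1683. Libraries A and B held 1461 and 1451 at 1 h of BDNF, 1521 and 1435 at 6 h, then 1564 and 1471 at 10 h. With KCl they held 1432 and 1352 at 1 h, 1489 and 1518 at 6 h, then 1480 and 1657 at 10 h. Both stimuli at 1 h lay below every control, and the later groups overlapped the controls or came close to them. Creb1 RNA fell by a log2 change of -0.16 at 1 h of BDNF (SE 0.06, adjusted p = 0.0557), -0.14 at 6 h of BDNF (adjusted p = 0.0913) and -0.23 at 1 h of KCl (adjusted p = 0.00533), and no other group was called. With 1 BDNF library left, neither BDNF value was called, although the log2 change at 1 h stayed at -0.17 and -0.16, while that at 6 h ran from -0.18 to -0.10. BDNF and KCl did not separate it at any time, with a log2 difference of 0.07 at 1 h (95% interval -0.09 to 0.22), -0.02 at 6 h (-0.18 to 0.13) and -0.05 at 10 h (-0.20 to 0.11).

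Crem (ENSMUSG00000063889, mm10 chr18:3266048-3337748, minus strand) encodes activators from its first start and, from starts inside the gene, short repressors known as ICER. The counts here sum all of its 39 annotated transcripts, so ICER and full-length Crem were not separated. Controls held 105 to 144 normalised counts with a median of 116. At 1 h of BDNF libraries A and B held 208 and 180, at 6 h 137 and 139, then 144 and 160 at 10 h. KCl took Crem to 605 and 449 at 1 h, 542 and 662 at 6 h, then 369 and 444 at 10 h. All 6 KCl libraries and both BDNF libraries of 1 h lay above every control, whereas BDNF at 6 h and at 10 h overlapped the controls. Crem rose 4.38-fold at 1 h of KCl (log2 2.13, SE 0.13, adjusted p = 8.95e-12), 5.03-fold at 6 h (adjusted p = 2.03e-12) and 3.40-fold at 10 h (adjusted p = 2.93e-10). Of the 16209 genes only 130 rose more at 1 h of KCl and 97 at 6 h. BDNF gave 1.63-fold at 1 h (adjusted p = 1.49e-04) and a log2 change of 0.35 at 10 h (adjusted p = 0.0370), a call lost without library B (0.28, adjusted p = 0.291). Compared directly, Crem was lower with BDNF than with KCl by log2 -1.42 at 1 h, -2.11 at 6 h and -1.41 at 10 h (adjusted p = 2.16e-07, 5.37e-10 and 3.37e-07). Of the exon bases of Crem 8.01% also lie in Gm6225 on the other strand, which averaged 9.44 normalised counts over all RNA libraries where Crem averaged 264. The sources used here do not state whether reads were counted by strand.

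Atf1 (ENSMUSG00000023027, mm10 chr15:100227819-100261244, plus strand), the third factor of the family, was called in 1 group only. Its normalised counts in controls ran from 171 to 189 (median 182). Libraries A and B held 227 and 229 at 1 h of BDNF, above every control, then 180 and 207 at 6 h, then 157 and 155 at 10 h. KCl gave 183 and 197 at 1 h, 177 and 204 at 6 h, then 165 and 151 at 10 h. The rise at 1 h of BDNF was log2 0.33 (SE 0.10, adjusted p = 0.00968). At 10 h the libraries of both stimuli lay below every control, with log2 changes of -0.21 and -0.19 that missed the threshold (adjusted p = 0.1004 and 0.103) and passed it with TMM scaling.

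The mix of CREB family RNA therefore differed by stimulus. Summed per kb of exon, the 3 factors stood at 198 ± 8.08 normalised counts per kb in controls (SD, n = 6), 213 ± 3.37 at 1 h of BDNF and 253 ± 19.6 at 1 h of KCl (n = 2 each). Crem was 10.2% of that sum in controls, 15.4% at 1 h of BDNF, 12.1% at 6 h and 13.8% at 10 h. With KCl its share was 35.2% at 1 h, 37.2% at 6 h and still 29.3% at 10 h. Creb1 was 59.9% of the sum in controls and 40.1% at both 1 h and 6 h of KCl, so Crem approached Creb1 there in level per kb of annotated exon. As the lengths of the transcripts present were not measured, these shares depend on the annotation.

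**Figure D2:**
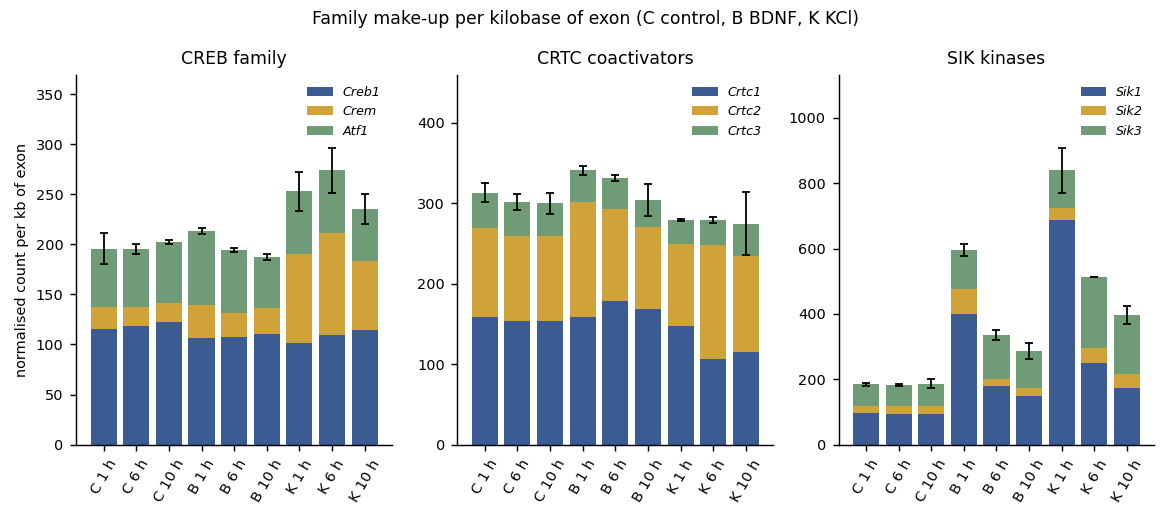
Normalised counts per kb of exon (vertical axes) of the CREB family, the CRTC coactivators and the SIK kinases in each group, stacked by gene, with an error bar for the SD of the sum over 2 libraries. The SIK sum stood at 184 in controls, 595 at 1 h of BDNF and 839 at 1 h of KCl, while the CRTC sum stayed between 275 and 341 in the stimulated groups.

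The 3 CRTC genes changed by smaller amounts, and not together. Crtc1 (ENSMUSG00000003575, mm10 chr8:70382355-70439579, minus strand) encodes the coactivator most abundant in forebrain neurons. Controls held 1575 to 1851 normalised counts (median 1756). Libraries A and B held 1627 and 1908 at 1 h of BDNF, 2002.5 and 2001 at 6 h, then 2001 and 1754 at 10 h. KCl gave 1600.3 and 1693 at 1 h, then 1249 and 1122 at 6 h, then 1474 and 1100.0 at 10 h, so that all 4 late KCl libraries lay below every control. Crtc1 fell by log2 -0.55 at 6 h of KCl (SE 0.09, adjusted p = 2.91e-05) and -0.44 at 10 h (adjusted p = 4.47e-04), and rose by log2 0.21 at 6 h of BDNF (adjusted p = 0.0808). Library B carried much of the fall at 10 h of KCl, which was log2 -0.23 without it (adjusted p = 0.0803), and the rise at 6 h of BDNF stayed at 0.21 with either library left out but was then not called. Set directly against each other, BDNF was higher than KCl by log2 0.76 at 6 h (adjusted p = 1.03e-05) and 0.56 at 10 h (adjusted p = 5.30e-04, or 0.35 with adjusted p = 0.0298 without library B of KCl).

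Crtc2 (ENSMUSG00000027936, mm10 chr3:90254163-90264125, plus strand), best known for driving gluconeogenic genes in liver, rose at a different time with each stimulus. Controls held 419 to 486 normalised counts (median 434). At 1 h libraries A and B held 614 and 561 with BDNF but 447 and 389 with KCl. At 6 h the order was turned, with 463 and 468 for BDNF against 562 and 596 for KCl, and at 10 h the values were 435 and 402 against 516 and 459.6. Both libraries of BDNF at 1 h and of KCl at 6 h lay above every control. The rises were log2 0.42 at 1 h of BDNF (SE 0.08, adjusted p = 2.89e-04) and 0.40 at 6 h of KCl (adjusted p = 1.88e-04). The direct comparison changed sign between these times, with BDNF higher than KCl by log2 0.49 at 1 h (adjusted p = 3.83e-04) and lower at 6 h (-0.31, adjusted p = 0.0102) and 10 h (-0.22, adjusted p = 0.0832, lost without library A of KCl or library B of BDNF).

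Crtc3 (ENSMUSG00000030527, mm10 chr7:80586627-80688877, minus strand) was lower in each of the 3 groups where it was called. Controls held 382 to 476 normalised counts (median 406). Libraries A and B held 403 and 365 at 1 h of BDNF, 357 and 403 at 6 h, then 319 and 346 at 10 h. With KCl they held 269 and 315 at 1 h, 319 and 304 at 6 h, then 440.02 and 357 at 10 h. KCl at 1 h and 6 h and BDNF at 10 h lay below every control, and of the KCl libraries of 10 h library B lay below every control and library A within their range. Crtc3 fell by log2 -0.51 at 1 h of KCl (SE 0.10, adjusted p = 2.07e-04), -0.41 at 6 h of KCl (adjusted p = 0.00110) and -0.32 at 10 h of BDNF (adjusted p = 0.0169), the last lost without library A (-0.26, adjusted p = 0.177) and against controls of the same time (-0.26, adjusted p = 0.161). BDNF was higher than KCl by log2 0.39 at 1 h (adjusted p = 0.0132) and 0.28 at 6 h (adjusted p = 0.0551), and at both times the call was lost on leaving out single libraries.

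Taken per kb, Crtc1 made up 50.9% of CRTC RNA in controls, Crtc2 35.3% and Crtc3 13.9%. At 6 h of KCl, where Crtc1 and Crtc3 fell and Crtc2 rose, Crtc2 held 50.7% and Crtc1 38.0%. At 1 h of BDNF Crtc2 held 42.2%. The sum of the 3 was 305 ± 11.0 normalised counts per kb in controls (SD, n = 6, range 291 to 321). It lay above that range at 1 h (341 ± 5.81) and 6 h (331 ± 4.04) of BDNF (n = 2 each). With KCl it lay below that range at 1 h (279 ± 0.820) and 6 h (279 ± 3.20, n = 2 each). At 10 h both stimuli overlapped the controls.

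Sik1 (ENSMUSG00000024042, mm10 chr17:31844250-31855804, minus strand), itself a textbook CREB target whose product phosphorylates CRTCs, rose in all 6 stimulated groups and most at 1 h. Controls held 448 to 513 normalised counts (median 482). At 1 h libraries A and B held 2015 and 2093 with BDNF and 3202 and 3848 with KCl. At 6 h they held 952 and 876 with BDNF and 1206 and 1344 with KCl, and at 10 h 798 and 725 with BDNF and 964 and 821 with KCl. No stimulated library overlapped the controls at any time, and the values at 10 h were the closest to them. The rise was 4.23-fold at 1 h of BDNF (log2 2.08, SE 0.08, adjusted p = 7.29e-15), 1.88-fold at 6 h (adjusted p = 1.14e-08) and 1.57-fold at 10 h (adjusted p = 2.48e-06). KCl gave 7.24-fold at 1 h (log2 2.86, adjusted p = 2.68e-17), 2.63-fold at 6 h (adjusted p = 4.84e-12) and 1.84-fold at 10 h (adjusted p = 1.30e-08). Of all genes tested, 102 rose more at 1 h of BDNF and 69 at 1 h of KCl. BDNF stayed below KCl by log2 -0.77 at 1 h (adjusted p = 1.85e-06), -0.48 at 6 h (adjusted p = 3.37e-04) and -0.23 at 10 h (adjusted p = 0.0760), the last lost without library A of KCl (-0.11, adjusted p = 0.4997) or library B of BDNF.

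Sik2 (ENSMUSG00000037112, mm10 chr9:50892801-51009073, minus strand), a CRTC kinase studied most in fat and in neurons, was called with BDNF at 1 h only. Controls held 191 to 249.9 normalised counts (median 225). Libraries A and B rose to 715 and 764 at 1 h of BDNF and stood at 228 and 234 at 6 h, then 253 and 213 at 10 h, within or next to the controls. KCl gave 404 and 298 at 1 h, 487 and 409 at 6 h, then 399.7 and 403 at 10 h, all above every control. At 1 h of BDNF the rise was 3.31-fold (log2 1.73, SE 0.11, adjusted p = 5.43e-11), with 156 genes rising more, and at 6 h and 10 h the log2 changes were 0.05 and 0.06, not called. With KCl the rise was 1.56-fold at 1 h (adjusted p = 6.97e-05), 2.00-fold at 6 h (adjusted p = 1.28e-07) and 1.80-fold at 10 h (adjusted p = 2.32e-06), and without library A the log2 change at 1 h fell from 0.64 to 0.42 (adjusted p = 0.0171). The stimuli therefore changed places, with BDNF above KCl by log2 1.09 at 1 h (adjusted p = 1.72e-06) and below it by -0.95 at 6 h (adjusted p = 6.83e-06) and -0.79 at 10 h (adjusted p = 1.12e-04). Of the exon bases of Sik2 15.0% also lie in Ppp2r1b on the other strand. Ppp2r1b averaged 613 normalised counts over all RNA libraries and Sik2 342, and the part of Sik2 reads from Ppp2r1b was not tested.

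Sik3 (ENSMUSG00000034135, mm10 chr9:46012820-46224194, plus strand), the kinase of the family also known for its role in sleep need, rose in all 6 groups as well, but more slowly. Controls held 585 to 675 normalised counts (median 609.7). With BDNF libraries A and B held 1061 and 1122 at 1 h, 1286 and 1215 at 6 h, then 1135 and 987 at 10 h. KCl gave 1153 and 998 at 1 h, 2112 and 1938 at 6 h, then 1723 and 1624 at 10 h. Every stimulated library lay above every control, and KCl pulled ahead of BDNF only from 6 h. The rise was 1.76-fold, 2.02-fold and 1.71-fold at 1, 6 and 10 h of BDNF (log2 0.82, 1.01 and 0.77, SE 0.07, adjusted p = 1.40e-08, 6.58e-10 and 6.46e-08). KCl gave 1.73-fold, 3.26-fold and 2.70-fold (log2 0.79, 1.71 and 1.43, adjusted p = 1.14e-08, 6.13e-14 and 1.57e-12). BDNF and KCl did not differ detectably at 1 h (log2 0.02, 95% interval -0.15 to 0.20), and BDNF was lower by -0.69 at 6 h (adjusted p = 1.62e-06) and -0.66 at 10 h (adjusted p = 6.02e-06).

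**Figure D3:**
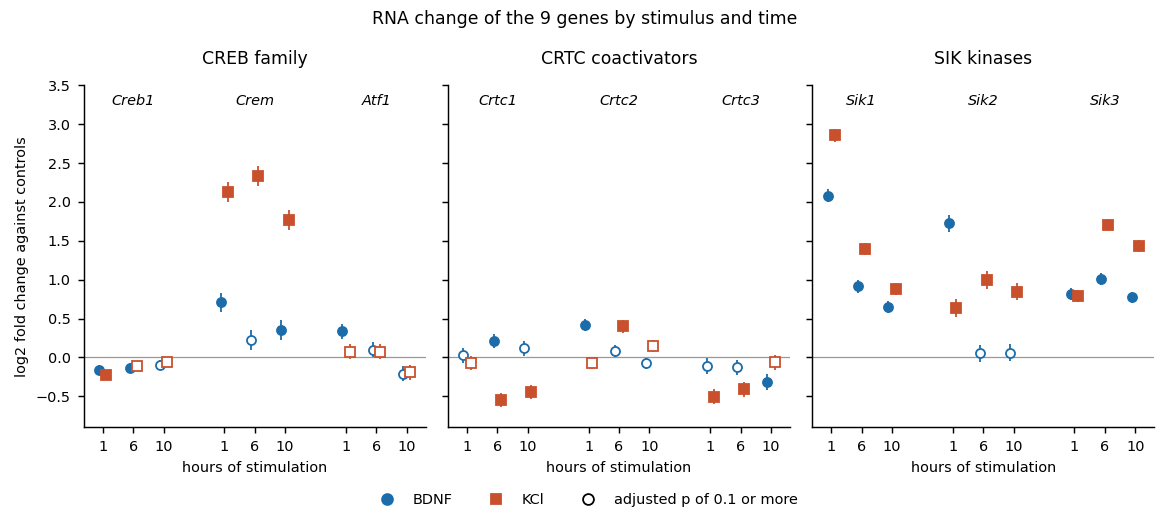
Log2 fold change against the 6 controls (vertical axes, bars of 1 SE from the limma fit) by hours of stimulation (horizontal axes) for each of the 9 genes, with BDNF and KCl in separate colours and filled points where the adjusted p was below 0.1. Sik1 fell with time after both stimuli (log2 2.86 to 0.88 with KCl), Sik2 rose with BDNF at 1 h alone (1.73) and Sik3 was highest at 6 h (1.01 and 1.71).

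Kinase RNA as a whole rose well beyond the spread of the libraries. Summed per kb of exon, the 3 SIKs stood at 184 ± 7.13 normalised counts per kb in controls (SD, n = 6). With BDNF the sum was 595 ± 19.0 at 1 h, 336 ± 15.5 at 6 h and then 287 ± 24.2 at 10 h, and with KCl 839 ± 69.4, 513 ± 0.0237 and 396 ± 27.0 (n = 2 each). At 6 h of KCl the single kinases varied more, with Sik1 at 248 ± 19.0, Sik2 at 46.9 ± 5.78 and Sik3 at 217 ± 13.2. There Sik1 was higher in library B, and Sik2 and Sik3 in library A, so the differences cancelled in the sum. Sik1 was 51.2% of the sum in controls, 67.3% at 1 h of BDNF and 81.7% at 1 h of KCl, but 48.5% at 6 h and 43.9% at 10 h of KCl. Sik3 took the opposite course, from 36.1% in controls to 13.9% at 1 h of KCl and 45.4% at 10 h. Sik2 held 12.7% in controls, 13.0% at 1 h of BDNF and 4.44% at 1 h of KCl, where it rose less than the other kinases.

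Set directly against each other, BDNF and KCl differed in 6 of the 9 genes at 1 h (42.8% of all genes tested), 7 at 6 h (57.3%) and 6 at 10 h (45.0%). BDNF was the higher stimulus for 4 of the 6 genes at 1 h, namely Atf1, Crtc2, Crtc3 and Sik2, of which Atf1 (log2 0.26, adjusted p = 0.0858) was lost with TMM scaling, edgeR or DESeq2. At 6 h BDNF was higher for Crtc1 and Crtc3 and lower for Crem, Crtc2, Sik1, Sik2 and Sik3. At 10 h it was higher for Crtc1 alone. Between 6 h and 1 h of BDNF 4 genes were called, all lower at 6 h (33.6% of all genes), and between 10 h and 6 h of BDNF 0 (0.216%). With KCl 5 genes changed between 1 h and 6 h, 3 of them upward (59.6% of all genes), and 5 between 6 h and 10 h, 4 of them downward (22.5%).

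Open chromatin at the 9 genes was read from the ATAC-seq table, as reads in each peak after a LOESS correction for signal strength (normalised ATAC counts, given for the first and the second library of a group in table order). Peaks that differed from the 6 controls at an edgeR adjusted p below 0.1 are called DA-peaks, gained or closing. Of the 49 tested peaks, 10 were promoter peaks, and the others lay in introns, in 1 exon or in the flanks. Distances are given from the gene's annotated start, with a plus sign downstream, and no result here ties a peak to the gene it was listed under.

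Member peaks called with BDNF numbered 12 at 1 h, 9 gained and 3 closing (17.3% of all 56383 peaks tested), 7 at 6 h, all gained (10.6%), and 6 at 10 h, 5 gained and 1 closing (9.36%). With KCl they numbered 6 at 1 h, 2 gained and 4 closing (8.31% of all peaks), 5 at 6 h, 4 and 1 (7.56%), and 3 at 10 h, 2 and 1 (7.87%). Of all peaks called, 71.6%, 82.8% and 80.8% were gained with BDNF at 1, 6 and 10 h, and 62%, 73.8% and 75.3% with KCl. The split with KCl turned on the scaling. TMM gave 2 gained and 9 closing at 1 h, 5 and 5 at 6 h, then 3 and 5 at 10 h, and DESeq2 2 and 8, 5 and 5, and 2 and 7. With BDNF the splits were 9 and 2, 8 and 0, and 4 and 2 with TMM, and 9 and 1, 8 and 0, and 4 and 2 with DESeq2. The gained share of all called peaks with KCl was 57.6%, 65.9% and 63.2% with TMM and 50.6%, 57.9% and 54.3% with DESeq2. With BDNF that share was 73%, 86.7% and 82.5% with TMM and 73.8%, 84.6% and 79.3% with DESeq2. Of the 49 peaks 18 were called in at least 1 stimulated group, 4 were gained with BDNF at all 3 times, and 2 were gained at 1 h with both BDNF and KCl. The matching shares over all peaks were not counted, so these numbers describe the 49 peaks only. Of the 10 promoter peaks, 1 (10%) was called at 1 h of BDNF, 10 h of BDNF, 1 h of KCl and 6 h of KCl. At 6 h of BDNF and 10 h of KCl 0 were called. The shares of all peaks in the first 4 of these groups were 17.3%, 9.36%, 8.31% and 7.56%. The share of all promoter peaks called was not counted.

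**Figure D4:**
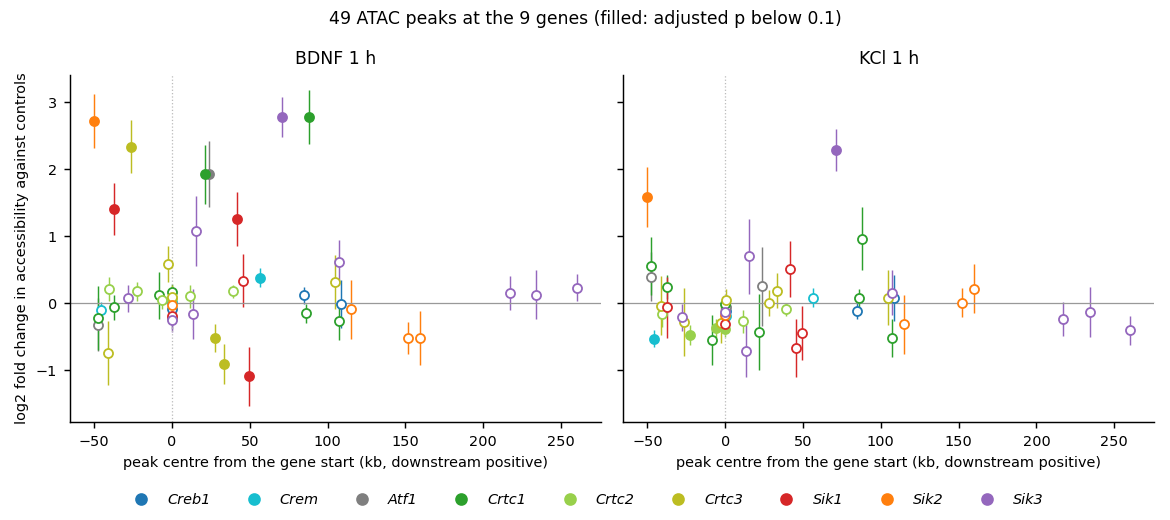
Log2 fold change of the 49 tested peaks at 1 h of BDNF and 1 h of KCl against the 6 controls (vertical axes, bars of 1 SE) by distance from the start of the gene in kb (horizontal axes), with called peaks filled. Gained peaks lay away from position 0, the farthest up being the intronic Sik3 peak at +70.9 kb (log2 2.78 with BDNF).

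Sequences are shown for the most gained peak of 6 genes, because the values in the next paragraphs turn on them, and for the Sik3 promoter, because Sik3 rose in all groups without a called change there. Each peak sequence is the middle 200 bases of the peak, read 5′ to 3′ on the plus strand of mm10 with the deposited coordinates taken as counted from 1 (counted from 0 they would shift by 1 base). Capitals mark the AP-1 site TGANTCA or the CRE core TGACG, on either strand. No exon of an annotated gene overlaps the 6 windows.
Sik3 intron, chr9:46083660-46083859: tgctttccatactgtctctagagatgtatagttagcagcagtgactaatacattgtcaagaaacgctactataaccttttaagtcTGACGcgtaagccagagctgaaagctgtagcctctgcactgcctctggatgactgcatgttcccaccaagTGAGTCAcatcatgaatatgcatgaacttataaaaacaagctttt
Sik2 flank, chr9:51059081-51059280: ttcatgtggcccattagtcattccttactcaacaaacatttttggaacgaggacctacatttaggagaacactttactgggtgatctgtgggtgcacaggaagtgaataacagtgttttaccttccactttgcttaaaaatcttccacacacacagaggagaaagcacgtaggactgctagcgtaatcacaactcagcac
Sik1 flank, chr17:31892916-31893115: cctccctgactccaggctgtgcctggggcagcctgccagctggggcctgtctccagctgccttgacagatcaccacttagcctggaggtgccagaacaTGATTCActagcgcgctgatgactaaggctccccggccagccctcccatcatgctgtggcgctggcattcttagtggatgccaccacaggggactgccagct
Crtc1 flank, chr8:70351334-70351533: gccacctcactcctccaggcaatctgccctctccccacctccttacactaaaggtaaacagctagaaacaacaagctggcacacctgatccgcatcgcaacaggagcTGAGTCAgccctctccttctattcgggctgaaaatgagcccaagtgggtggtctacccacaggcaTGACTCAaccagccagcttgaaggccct
Crtc3 flank, chr7:80715326-80715525: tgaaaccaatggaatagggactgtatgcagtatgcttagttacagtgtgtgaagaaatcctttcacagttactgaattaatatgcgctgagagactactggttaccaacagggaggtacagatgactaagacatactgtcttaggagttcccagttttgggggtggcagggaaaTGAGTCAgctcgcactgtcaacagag
Atf1 intron, chr15:100251507-100251706: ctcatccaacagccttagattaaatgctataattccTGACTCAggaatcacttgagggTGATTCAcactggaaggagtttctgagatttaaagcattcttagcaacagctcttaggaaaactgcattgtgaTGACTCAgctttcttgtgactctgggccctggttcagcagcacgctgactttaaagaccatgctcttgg
The Sik3 promoter sequence runs from 129 bases before the RefSeq start to the base before it (mm10, plus strand, the strand of the gene), and the 121 bases further upstream were left out because an exon of the divergent gene Pafah1b2 covers them.
Sik3 promoter, chr9:46012691-46012819: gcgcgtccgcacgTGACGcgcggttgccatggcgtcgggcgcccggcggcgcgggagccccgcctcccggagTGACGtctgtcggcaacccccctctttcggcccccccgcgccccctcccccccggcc

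The intronic Sik3 peak at +70.9 kb (mm10 chr9:46083570-46083951) gained accessibility with both stimuli at every time. Controls held 1.62 to 19.6 normalised ATAC counts (median 15.0). The libraries held 77.3 and 85.7 at 1 h of BDNF, 80.2 and 34.6 at 6 h, then 50.5 and 49.3 at 10 h. KCl gave 69.6 and 47.6 at 1 h, 33.5 and 42.9 at 6 h, then 51.9 and 47.4 at 10 h, and all 12 stimulated libraries lay above every control. Log2 gains were 2.78 (SE 0.30, adjusted p = 5.39e-14), 2.23 and 2.07 with BDNF and 2.29 (adjusted p = 5.00e-08), 1.63 and 2.06 with KCl. BDNF and KCl were not called different there at any time. Its sequence above holds 1 AP-1 site and 1 CRE core.

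Upstream of Sik2 at -50.1 kb, in an intron of Layn (mm10 chr9:51059041-51059321), a second peak was gained in all 6 groups. Controls held 1.48 to 9.71 normalised ATAC counts (median 6.50). BDNF gave 45.1 and 33.3 at 1 h, 37.3 and 21.4 at 6 h, then 19.3 and 21.4 at 10 h. KCl gave 24.0 and 12.3 at 1 h, 20.97 and 28.8 at 6 h, then 15.3 and 23.9 at 10 h, again all above the controls. Log2 gains came to 2.72 (SE 0.40, adjusted p = 1.57e-08), 2.28 and 1.79 with BDNF and 1.59 (adjusted p = 0.0180), 2.01 and 1.73 with KCl, and at 1 h BDNF was higher than KCl by 1.14 (adjusted p = 0.0985). This peak stayed open at 6 h and 10 h of BDNF, when Sik2 RNA stood at the level of controls. Neither motif was found in its window.

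At Sik1, the peak at -37.2 kb (mm10 chr17:31892905-31893128) held 7.77 to 12.8 normalised ATAC counts in controls and 24.3 and 31.8 at 1 h of BDNF, a gain of log2 1.40 (adjusted p = 0.00511). It was also gained at 6 h of BDNF (1.14, adjusted p = 0.0584) and at 6 h of KCl (33.5 and 20.9, log2 1.44, adjusted p = 0.0228). At 1 h of KCl, when Sik1 RNA was highest, the log2 change was -0.06, and BDNF exceeded KCl by 1.47 (adjusted p = 0.0378). A further Sik1 peak at +41.6 kb (mm10 chr17:31814074-31814305) was gained with BDNF at 1 h (log2 1.26, adjusted p = 0.0181) and 6 h (1.07, adjusted p = 0.0876). One at +49.5 kb (mm10 chr17:31806134-31806400) was closing at 1 h (-1.10, adjusted p = 0.0917) and 10 h (-1.40, adjusted p = 0.0907) of BDNF, and its call at 1 h was lost with TMM, DESeq2 and several single libraries left out. Each of these Sik1 calls rests on few reads, and the gain at -37.2 kb was not called without the second BDNF library (1.17, adjusted p = 0.197).

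Listed under Crtc1, a peak at +88.1 kb in an intron of Upf1 (mm10 chr8:70351278-70351591) was gained with BDNF only. Controls held 1.03 to 13.1 normalised ATAC counts (median 6.33). BDNF gave 40.1 and 55.0 at 1 h, 35.9 and 20.1 at 6 h, then 14.3 and 26.0 at 10 h, whereas KCl at 1 h gave 12.9 and 14.1. In log2 terms these were 2.77 (adjusted p = 8.87e-09), 1.98 and 1.56 with BDNF and 0.96, 0.14 and 0.09 with KCl, of which no KCl value was called. BDNF exceeded KCl by log2 1.81 at 1 h and 1.84 at 6 h. The intronic Crtc1 peak at +21.4 kb (mm10 chr8:70417981-70418283) was gained at 1 h of BDNF (log2 1.92, adjusted p = 4.61e-04).

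A peak at -26.5 kb from Crtc3, in an intron of Iqgap1 (mm10 chr7:80715294-80715558), held 1.22 to 18.4 normalised ATAC counts in controls, where both libraries of 10 h (17.8 and 18.4) stood above the other 4. BDNF gave 50.4 and 40.2 at 1 h and 38.1 and 26.7 at 6 h, gains of log2 2.33 (adjusted p = 6.72e-07) and 1.84, and KCl was not called. At 1 h BDNF exceeded KCl by log2 2.61 (adjusted p = 1.45e-04). In the body of Crtc3, at +33.4 kb (mm10 chr7:80655161-80655747), another peak was closing at 1 h of BDNF, with 23.9 and 24.1 normalised ATAC counts against 35.8 to 56.9 in controls (log2 -0.91, adjusted p = 0.0247). That call was lost without either BDNF library (adjusted p = 0.180 and 0.207, log2 -0.90 each) and against controls of the same time (-0.77, adjusted p = 0.184). The intronic Atf1 peak at +23.8 kb (mm10 chr15:100251482-100251733) held 1.98 to 9.71 normalised ATAC counts in controls and 18.1 and 21.3 at 1 h of BDNF, 19.3 and 12.1 at 6 h, then 14.4 and 21.1 at 10 h. Its gains of log2 1.93, 1.57 and 1.79 were called at all 3 times of BDNF, but at 1 h the call was lost without the second BDNF library (1.43). No time of KCl was called, although at 6 h KCl held 15.6 and 8.32, overlapping BDNF.

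**Figure D5:**
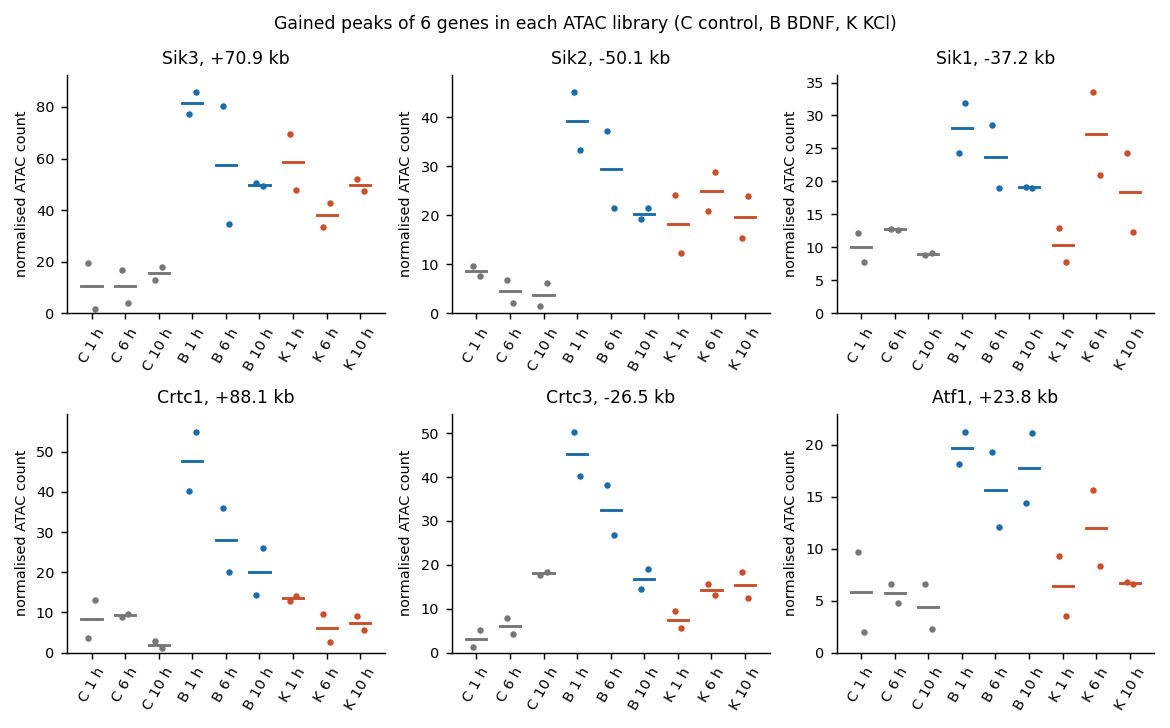
Normalised ATAC counts of 6 gained peaks in each library (vertical axes, starting at 0) by group (horizontal axes), with 1 point per library and a line at the group mean. The Sik3 and Sik2 peaks were above all controls with both stimuli. The Crtc1, Crtc3 and Atf1 peaks were called gained with BDNF only, but at 6 h the Atf1 values of BDNF and KCl overlapped.

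Set against each other, BDNF and KCl differed at 13 of the 49 member peaks at 1 h, 12 of them higher with BDNF (14.8% of all peaks tested), at 2 at 6 h (3.60%) and at 1 at 10 h (2.02%). Of all peaks that differed at 1 h, 62.9% were higher with BDNF.

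Log2 changes of the 10 promoter peaks ran from -0.54 to 0.62 over the stimulated groups. The Sik1 promoter peak held 172 to 222 normalised ATAC counts in controls and 168 and 175 at 1 h of BDNF, and no promoter peak of Creb1, Atf1, Crtc1, Sik1, Sik2 or Sik3 was called in any stimulated group. With TMM scaling that of Creb1 was called closing at all 3 times of KCl (log2 -0.32, -0.35 and -0.37) and that of Sik2 at 10 h of BDNF (-0.38) and 1 h of KCl (-0.31). The peak at the first start of Crem held 767 to 915 normalised ATAC counts in controls and 728 and 736 at 1 h of KCl, the highest ATAC level among the promoters of the 9 genes. With KCl its log2 changes of -0.19, -0.21 and -0.08 were not called, but with TMM scaling they were -0.50 (adjusted p = 2.43e-06), -0.51 and -0.42 and were called closing. A second Crem promoter peak, at a start inside the gene 56.7 kb downstream, was called gained at 1 h (log2 0.38) and 10 h (0.44) of BDNF, with 175 and 193 normalised ATAC counts at 1 h against 105 to 189 in controls, and those calls were lost with TMM or DESeq2. Against controls of the same time alone, which held 105 and 111 at 1 h, the gain was log2 0.76 at 1 h (adjusted p = 4.58e-04) and 0.19 at 10 h (adjusted p = 0.707). The Crtc2 promoter peak was closing at 1 h of KCl (log2 -0.39, adjusted p = 0.0341), and that of Crtc3 was gained at 6 h of KCl (0.62, adjusted p = 0.0266, lost without the first library of that group). Away from the starts, a peak in Cul2, 45.6 kb upstream of Crem, was closing at 1 h (log2 -0.53) and 10 h (-0.41) of KCl, and a peak at the promoters of Rps27 and Rab13, 40.4 kb upstream of Crtc2, at 6 h of KCl (-0.74, adjusted p = 0.0306).

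Motifs were counted on both strands. Among the 32851 RefSeq promoters of mouse (GRCm38, 250 bases before to 50 after the start), 20.8% held the CRE core TGACG, 1.79% the palindromic CRE TGACGTCA, which contains that core, and 7.81% the AP-1 site TGANTCA. Promoter sequences were matched for 6 of the 9 genes, Creb1, Atf1, Crtc1, Crtc3, Sik2 and Sik3. The CRE core was found 3 times in that of Sik3 (at 133, 116 and 57 bases before the start, the last 2 within the sequence above), 2 times in that of Sik2 and 1 time in that of Atf1. Neither the palindromic CRE nor the AP-1 site was found in any of the 6. Among peaks, the AP-1 site stood in the middle 200 bases of 13.1% of all 58177 and of 59.7% of the 6996 gained at 1 h of BDNF. At the 9 genes it stood in 7 of the 49 tested peaks and in 6 of the 9 gained at 1 h of BDNF, the CRE core in 12 of the 49 and 1 of those 9 (11.9% of all peaks and 11.2% of all gained at 1 h of BDNF), and the palindromic CRE in 0 of the 49 (0.708% of all peaks). A match or its absence describes these letters in these windows only.

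Other genes of the pathway were counted in 6 lists. Among 20 tested genes of cAMP and protein kinase A signalling, 7 rose and 3 fell at 1 h of BDNF and 10 rose and 2 fell at 6 h of KCl, where 21.3% and 19.0%, then 33.4% and 33.1%, of all genes rose and fell. The median log2 fold change of the list was 0.00 and 0.17. Pde1a, a calcium-dependent phosphodiesterase, rose by log2 2.24 at 10 h of BDNF (1807 and 1747 normalised counts against 343 to 396 in controls), and Pde4d, which degrades cAMP, by 1.37 at 6 h of KCl. Akap5, an anchor of protein kinase A at synapses, fell by -0.79 at 6 h of BDNF, and the adenylyl cyclase Adcy2 by -0.75 at 10 h of KCl. Of 18 kinases on calcium and MAP kinase routes to CREB, 5 rose and 1 fell at 1 h of BDNF (21.3% and 19.0% of all genes), 6 and 6 at 6 h (22.1% and 21.1%), and 8 and 4 at 1 h of KCl (26.5% and 28.2%). The CaM kinase gene Camk1d rose by log2 1.05 at 6 h of BDNF and its upstream kinase Camkk1 by 0.92 at 1 h, while Rps6ka5 and Rps6ka4, which encode the CREB kinases MSK1 and MSK2, fell by -1.32 at 6 h of BDNF and -0.97 at 1 h of KCl.

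The list closest to the CRTCs held 20 coactivators and CRTC regulators, of which 11 rose and 3 fell at 1 h of BDNF (21.3% and 19.0% of all genes) and 15 rose and 2 fell at 1 h of KCl (26.5% and 28.2%). The list medians were log2 0.17 and 0.24. The 14-3-3 gene Ywhaz rose by log2 0.62 and the coactivator Crebbp by 0.58 at 6 h of KCl, and Strada and Cab39l, partners of the SIK-activating kinase LKB1, fell by -1.21 and -0.84 there. Class IIa histone deacetylases are SIK substrates too, and all 4 rose at 6 h of KCl (33.4% of all genes), with a list median of log2 1.01 against 0.01 for all genes. With BDNF at 6 h 0 rose and 1 fell (22.1% and 21.1% of all genes). Hdac9 held 1724 and 1589 normalised counts at 6 h of KCl and 1943 and 1856 at 10 h against 254 to 318 in controls, a rise of log2 2.76 at 10 h (SE 0.09, adjusted p = 3.57e-15) after a fall of -0.41 at 1 h. Hdac5 rose 2.83-fold at 1 h of BDNF and Hdac7 fell by -0.51 at 1 h of KCl.

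Among 13 tested relatives in the wider CREB and ATF group, 4 rose and 2 fell at 1 h of BDNF (21.3% and 19.0% of all genes) and 8 rose and 2 fell at 6 h of KCl (33.4% and 33.1%). The stress-induced factors Atf3 and Atf4 rose by log2 3.33 at 1 h of BDNF and 1.58 at 1 h of KCl, and Crebl2 and Crebzf fell by -1.01 at 1 h of BDNF and -0.77 at 1 h of KCl. Textbook CREB target genes were mostly called higher. Of 24 tested, 20 rose and 0 fell at 1 h of BDNF (21.3% and 19.0% of all genes). At 6 h 18 rose and 2 fell (22.1% and 21.1%), and at 10 h 14 and 2 (21.1% and 19.5%). With KCl 20 rose and 1 fell at 1 h (26.5% and 28.2% of all genes). At 6 h of KCl 22 rose and 0 fell (33.4% and 33.1%), and at 10 h 23 and 0 (29.0% and 28.2%). The list was chosen with earlier results of these data known, so these counts are not an independent test. The list median of the log2 fold change was 1.13, 0.57 and 0.40 over the 3 times of BDNF, and 1.41, 2.39 and 2.01 over those of KCl, beside all-gene medians within 0.01 of 0. Fos held 1715 and 1738 normalised counts at 1 h of BDNF and 5742 and 5274 at 1 h of KCl (log2 5.63 and 7.30), and Nr4a1, an orphan nuclear receptor, rose by log2 6.94 at 1 h of KCl. Inhba fell by -0.81 at 1 h of KCl but rose by 0.91 at 1 h of BDNF. Nfil3 fell by -0.48 at 10 h of BDNF but rose by 1.07 at 1 h of BDNF and 2.62 at 1 h of KCl.

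Genes with the pattern most like that of the 4 strongly changed members were found by the Pearson r of log2 values over the 9 group means, as a description without a test, since the 9 points share libraries and controls. For Sik1 they were Junb (r = 0.994), Ppp1r15a (0.991) and Papolb (0.989). For Crem they were Oaz1 (0.998), Eif4enif1 (0.991) and Ankrd50 (0.991), for Sik2 1700058P15Rik (0.984), Arid5a (0.977) and Otud1 (0.967), and for Sik3 Inpp5f (0.988), Mapk8ip3 (0.987) and Gm10136 (0.986). The sizes differed within each set. Junb rose by log2 5.47 at 1 h of KCl, where Sik1 rose by 2.86, and Arid5a by 2.64 at 1 h of BDNF, where Sik2 rose by 1.73.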

How the data were processed

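RNA-seq and ATAC-seq were read from 1 table each. Per the study's methods the authors aligned RNA reads with TopHat2 to mm10 with GENCODE annotation and divided counts by DESeq2 size factors, giving the deposited normalised counts (signal). The program that counted reads is not given in the sources used here. Within a tolerance of 0.01, 100% of the deposited values came out as whole reads. ATAC reads were aligned with bowtie2, peaks were called per sample with MACS2 and merged with DiffBind from those in at least 2 samples. The deposited ATAC table, though its name says normalised, held whole-number counts to which the LOESS step of the methods had not been applied. The 2 tables of the authors' own comparisons hold fold changes and p-values; they were not used, except 1 for gene symbols (26203 genes named).

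RNA was fitted with limma 3.58.1 (trend and robust) on log2(value + 1), because the deposited unit is not counts, with 7 levels (the 6 controls as 1) and genes of mean at least 10. On this scale the change of low genes is understated. ATAC was fitted with edgeR 4.0.16 (quasi-likelihood, LOESS offsets of span 0.3) with the same levels. Calls had a Benjamini-Hochberg adjusted p below 0.1 over all features. R 4.3.3, DESeq2 1.42.0, Python 3.11.15, numpy 2.4.6 and pandas 2.3.3 were used. Gene spans, exons and starts came from GENCODE vM21 (GRCm38, the build of mm10), and sequences from RefSeq GRCm38. A promoter peak overlapped 1000 bases before to 100 after an annotated start. RNA replicates differed beyond sampling noise (chi-square per degree of freedom 2.33 to 36.4). The highest value was that of the 6 h KCl pair, and the next was 9.77 for the 1 h control pair. The limma fit gave each gene a common variance over all groups, so its SEs do not reflect the wider spread of a single pair. Intervals of fits are 95% intervals. Scripts were tested on simulated data.

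Columns of the RNA table carry letters and those of the ATAC table only the group. Over 36 pairs of groups, deviations of libraries with the same letter correlated at -0.31 to 0.42 (median 0.06, 13 pairs above 0.1), so letters were not taken as pairs. The members and lists were chosen with earlier results of these data known. Named were all 9 members, per list the 2 called genes with the largest rise and the 2 with the largest fall, the 3 genes most like each member with a called log2 change of at least 1, every promoter peak and per member the most gained and most closing peak; other peaks were named after their values were seen. Alternatives were TMM scaling, DESeq2, edgeR on whole reads for RNA and limma for ATAC, a pseudocount of 5, no filter, a threshold of 0.01, controls of the same time, peaks of promoters and gene bodies only, a replicate block and leaving out each library. Where 1 library of a group was left out, the remaining one was assumed to vary like the other groups.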

Additional observations from a re-analysis of the deposited data

Results flagged for a closer look

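A change between times under the same stimulus, tested as a contrast of the limma fit, was called for 14 gene values. Sik1 fell from 1 h to 6 h with BDNF by a log2 change of -1.17 (adjusted p = 1.03e-08) and with KCl by -1.46 (adjusted p = 1.19e-10), and from 6 h to 10 h with KCl by -0.52 (adjusted p = 0.00145). Sik2 fell from 1 h to 6 h with BDNF by -1.67 (adjusted p = 7.94e-09) and rose over the same hours with KCl by 0.36 (adjusted p = 0.0321), a value that was 0.14 without library B of KCl at 1 h and not called. Sik3 rose from 1 h to 6 h with KCl by 0.91 (adjusted p = 3.40e-08) and fell from 6 h to 10 h by -0.27 (adjusted p = 0.0444). Crem fell from 1 h to 6 h with BDNF by -0.49 (adjusted p = 0.0240) and from 6 h to 10 h with KCl by -0.56 (adjusted p = 0.0182).

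Among the coactivators, Crtc1 fell from 1 h to 6 h with KCl by log2 -0.48 (adjusted p = 0.00132). Crtc2 fell from 1 h to 6 h with BDNF by -0.33 (adjusted p = 0.0137), rose over those hours with KCl by 0.47 (adjusted p = 3.44e-04) and fell from 6 h to 10 h with KCl by -0.25 (adjusted p = 0.0866). Crtc3 rose from 6 h to 10 h with KCl by 0.35 (adjusted p = 0.0550). Leaving out 1 library ended the call of Crem and of Crtc2 from 1 h to 6 h with BDNF and of Crem, Crtc2, Crtc3 and Sik3 from 6 h to 10 h with KCl.

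Among the 6 controls 1 library stood apart in 2 genes by Dixon's test. Crem held 144 normalised counts in library B of the 1 h control (gap over range 0.638), and Crtc2 held 486 in library A of the 1 h control (0.672). Of 29 such tests chance alone gives about 1 in 20.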

How the results depend on the processing

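Of 66 called RNA values, 66 kept their call with a pseudocount of 5, 65 with TMM scaling, 65 with edgeR and 63 with DESeq2 on whole reads, 60 without the filter, 48 at a threshold of 0.01 and 29 of 33 against controls of the same time, and 0 reversed. Leaving out 1 library ended 17 of them at least once. Of 55 called ATAC values, 49 kept their call with TMM scaling, 45 with DESeq2, 40 with limma, 53 without the filter, 23 at 0.01 and 22 of 39 against controls of the same time, and 41 were lost at least once on leaving out a library, with 0 reversed. Counts of called RNA members, with their range on leaving out 1 library, were 7 (6 to 7), 4 (2 to 4) and 4 (3 to 5) for BDNF and 6 (6 to 6), 7 (7 to 8) and 5 (5 to 7) for KCl at 1, 6 and 10 h. Direct comparisons gave 6 (4 to 6), 7 (6 to 7) and 6 (4 to 7), 6 h against 1 h gave 4 (2 to 5) with BDNF and 5 (4 to 6) with KCl, and 10 h against 6 h of KCl gave 5 (1 to 5). At a threshold of 0.01 the count was 2 for BDNF at 6 h, at 10 h and for 6 h against 1 h, and 1 for 10 h against 6 h of KCl. BDNF at 6 h also gave 2 without the filter and 2 against controls of the same time.

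Peaks called with BDNF at 1, 6 and 10 h numbered 12 (5 to 13 on leaving out 1 library), 7 (3 to 8) and 6 (1 to 7), at 0.01 they were 7, 4 and 2, and over promoters and gene bodies only 6, 2 and 3. Limma gave 4 at 6 h of BDNF, and controls of the same time gave 3 at 10 h. With KCl they were 6 (2 to 6), 5 (3 to 6) and 3 (1 to 3), at 0.01 2 at 1 h and 2 at 6 h, over promoters and gene bodies 2, 2 and 1, with TMM 11, 10 and 8, with DESeq2 10, 10 and 9, and against controls of the same time 1 at 1 h and 3 at 6 h. Directly compared peaks were 13 (3 to 13), 2 (1 to 2) and 1 (0 to 2), at 0.01 3, 1 and 0, over promoters and gene bodies 4 at 1 h and 0 at 6 h, 5 with limma at 1 h, with TMM 5 at 6 h and 3 at 10 h, and with DESeq2 4 and 2. Over all peaks, calls with KCl also grew with TMM. Gained and closing peaks went from 2906 and 1778 to 3572 and 2628 at 1 h. At 6 h they went from 3149 and 1116 to 4299 and 2228, and at 10 h from 3344 and 1096 to 5051 and 2944. With DESeq2 they were 2448 and 2391, 3266 and 2374, and 3934 and 3308. The cause of these shifts was not tested. TMM gave a median log2 change of all peaks within 0.06 of 0.

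With the column letter as a replicate block every RNA count was as without it, except 6 in place of 5 for KCl at 10 h, where Crtc2 was added (adjusted p = 0.0997). No paired analysis was possible for ATAC because its columns carry no replicate number. With 2 libraries per group, log2 changes as small as those of Creb1 and Crtc1 with BDNF were not called once 1 library of the group was left out, though those of Creb1 at 1 h and Crtc1 at 6 h kept their size, and distal peaks with few reads had SEs of 0.30 to 0.40 on the log2 scale.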
